A study of Rattus norvegicus with 6 samples.

Results

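Glucocorticoid-responsive genes are described here in dorsal root ganglia, where the cell bodies of sensory neurons sit next to the spinal cord, from SD rats with a spared nerve injury (SNI) and of sham-operated SD rats. The 9 genes are Nr3c1, Nr3c2, Fkbp5, Tsc22d3, Zbtb16, Per1, Sgk1, Hsd11b1 and Pdk4, of 18696 genes with a group average. They were chosen by name as receptors, enzymes and known target genes, with earlier SNI and sham values of these same samples in view. Their own SNI-to-sham differences are therefore given as a description with no test, and support nothing beyond the values themselves. In the 3 SNI libraries the tibial and common peroneal nerves had been tied and cut, a piece of the distal stumps removed, and the sural nerve spared. In the 3 sham libraries the sciatic nerve and its branches had been exposed and the skin closed. No drug, hormone or transgene is named for either group. The age and sex of the rats, the time after surgery, the side and spinal level of the ganglia, and whether a library came from 1 animal or from several are nowhere stated in the labels, so the spread between libraries may be technical.

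Glucocorticoids such as corticosterone, the main one in rats, enter cells and bind the glucocorticoid receptor (Nr3c1), which waits in the cytoplasm with the heat shock chaperone Hsp90 and then moves to the nucleus to switch target genes on or off. The mineralocorticoid receptor (Nr3c2) binds the same hormones with higher affinity. In sensory ganglia the hormones are known to dampen inflammation, and surgery and pain are stressors that raise their level in blood. The hormone was not measured here.

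Expression was deposited as TPM, a unit that corrects for gene length and gives the share of each gene among all transcripts of a library. Group averages covered all 9 genes, and TPM per library covered 3 of them, Tsc22d3, Fkbp5 and Zbtb16, in a table of 1637 genes. Averages have no error, so for the other 6 genes the spread between libraries is unknown. A ratio of averages is given below as log2(average TPM + 1) in SNI minus that in sham, and a fold change per library as the difference of mean log2(TPM + 1). Both understate the change of low genes. Added up over genes, the deposited average read counts came to 18.6 M in SNI and 18.6 M in sham, and the depth of single libraries is unknown. In bulk tissue, fewer cells of a type and less RNA per cell cannot be told apart.

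Tsc22d3, Fkbp5 and Zbtb16 were lower in SNI, and promoter sequences, credited to RefSeq on the GRCr8 assembly, were looked at first to see which hormone-response letters lie beside the starts of the 9 genes. The window runs from 250 bases before to 50 bases after a transcription start, and 11 windows were found for 6 of the genes (Nr3c1, Fkbp5, Tsc22d3, Per1, Sgk1 and Pdk4). The glucocorticoid receptor binds, as a pair, AGAACA followed after 3 bases by its reverse complement TGTTCT. This full repeat was in 0 of the 11 windows and in 0.0149% of all 33469 promoter windows of the table. The shorter core, ACANNNTGT, was in 1 of the 11 windows, against 6.86% of all windows. AGAACA alone was in 0 of the 11 windows, against 20.7% of all. The E box CACGTG, bound by clock factors, and the cyclic AMP element TGACGTCA were also in 0 of the 11, against 6.42% and 1.83% of all windows. Both strands were searched, and every full repeat also holds AGAACA and the core. A match describes letters alone, and no match says only that the letters are not in this window. No window was found for Zbtb16, so its promoter was not searched. The 1 match lies in 1 of the 3 windows of Tsc22d3, printed below with the core in capitals, beside the single window of Fkbp5.

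Tsc22d3, the second of its 3 start sites, minus strand, chrX:109065381-109065680: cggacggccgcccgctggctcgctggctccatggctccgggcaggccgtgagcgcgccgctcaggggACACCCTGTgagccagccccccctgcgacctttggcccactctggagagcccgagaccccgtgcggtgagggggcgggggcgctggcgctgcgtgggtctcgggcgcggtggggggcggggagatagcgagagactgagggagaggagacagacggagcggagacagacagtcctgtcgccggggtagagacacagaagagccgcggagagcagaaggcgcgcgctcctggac
Fkbp5, its 1 start site, minus strand, chr20:6543506-6543805: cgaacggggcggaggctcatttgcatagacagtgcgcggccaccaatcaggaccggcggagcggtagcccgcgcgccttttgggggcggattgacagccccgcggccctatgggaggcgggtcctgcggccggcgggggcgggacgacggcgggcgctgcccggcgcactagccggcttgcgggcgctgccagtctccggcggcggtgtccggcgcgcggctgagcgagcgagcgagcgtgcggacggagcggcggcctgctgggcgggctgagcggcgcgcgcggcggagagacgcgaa

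The core in the Tsc22d3 window spans positions -183 to -175 from the start, and G and C make up 73% of that window and 77% of the Fkbp5 window. The other windows of Tsc22d3, not printed, hold 52% and 50.7% G and C, and that of Per1 50.3%.

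Among the receptors, Nr3c1 (NCBI Gene ID 24413), the glucocorticoid receptor, averaged 14.96 TPM in SNI and 13.19 TPM in sham, a log2 ratio of 0.17. Nr3c2 (Gene ID 25672), the mineralocorticoid receptor, averaged 7.51 TPM in SNI and 9.34 TPM in sham, a log2 ratio of -0.28. The averages of the receptors lay on opposite sides of sham, and their sum was 22.46 TPM in SNI and 22.53 TPM in sham. There was thus 1.99 times as much Nr3c1 as Nr3c2 transcript in SNI and 1.41 times as much in sham. The average read counts behind them were 877 in SNI and 767 in sham for Nr3c1, and 398 in SNI and 491 in sham for Nr3c2. As a yardstick, the 100 genes nearest in level with TPM per library had a median standard error of 0.074 on the log2 scale around the level of Nr3c1 and 0.086 around that of Nr3c2. That table is a selection of the authors', so its spread need not be that of the receptors.

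Hsd11b1 (Gene ID 25116), the enzyme that regenerates active hormone inside cells from its inert keto form, averaged 5.69 TPM in SNI and 6.38 TPM in sham, a log2 ratio of -0.14. It rested on averages of only 70 reads in SNI and 79 reads in sham, and the median standard error of genes near its level was 0.094. The opposing enzyme Hsd11b2, which inactivates the hormone, averaged 1.01 TPM in SNI and 1.21 TPM in sham. Hsd11b2 rested on averages of only 17 reads in SNI and 20.3 reads in sham, and neither gene had TPM per library. By these averages the regenerating form was the more abundant of the pair in both groups.

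Tsc22d3 (Gene ID 83514), the glucocorticoid-induced leucine zipper, a small protein that restrains inflammatory transcription factors, was the most abundant of the 9 genes in both groups. It stood at 135.3, 144.3 and 138.7 TPM in the SNI libraries, against 216.3, 215.7 and 206.6 TPM in the sham libraries. Every SNI library lay below every sham library, with 62.3 TPM between the highest SNI and the lowest sham library. The means were 139.4 ± 4.52 TPM in SNI and 212.8 ± 5.45 TPM in sham (SD, n = 3 each), a ratio of 0.655 and a log2 fold change of -0.61 with SE 0.05. The difference of the means was larger than both SDs added, 9.97 TPM. The averages of the 9 genes summed to 243.9 TPM in SNI and 331.1 TPM in sham, of which Tsc22d3 made up 57.2% in SNI and 64.3% in sham.

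Fkbp5 (Gene ID 361810), an immunophilin co-chaperone that lowers the receptor's affinity for hormone and is itself induced by the receptor, stood at 21.95, 23.61 and 22.17 TPM in SNI libraries, against 30.48, 27.24 and 29.11 TPM in sham libraries. The groups did not overlap, but the gap between the nearest libraries was narrow at 3.63 TPM. The means were 22.6 ± 0.902 TPM in SNI and 28.9 ± 1.63 TPM in sham (SD, n = 3 each), with a ratio of 0.780 and a log2 fold change of -0.34 (SE 0.06).

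Zbtb16 (Gene ID 353227), a zinc finger repressor that is strongly induced by glucocorticoids in many tissues, showed the lowest ratio of the 9 genes. It stood at 2.66, 2.49 and 2.87 TPM in SNI libraries, against 7.73, 6.56 and 7.88 TPM in sham libraries. The highest SNI library held less than the lowest sham library by 3.69 TPM, and the sham libraries were the more spread out. The means were 2.67 ± 0.190 TPM in SNI and 7.39 ± 0.723 TPM in sham (SD, n = 3 each), a ratio of 0.362. On the scale with 1 TPM added the log2 fold change was -1.19 (SE 0.10), and with 0.1 TPM added it was -1.43. It was the one gene of the 9 in the authors' list of lower genes, which held 0.695% of all genes with averages, and 0 of the 9 were in their list of higher genes, which held 3.63%.

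**Figure D1:**
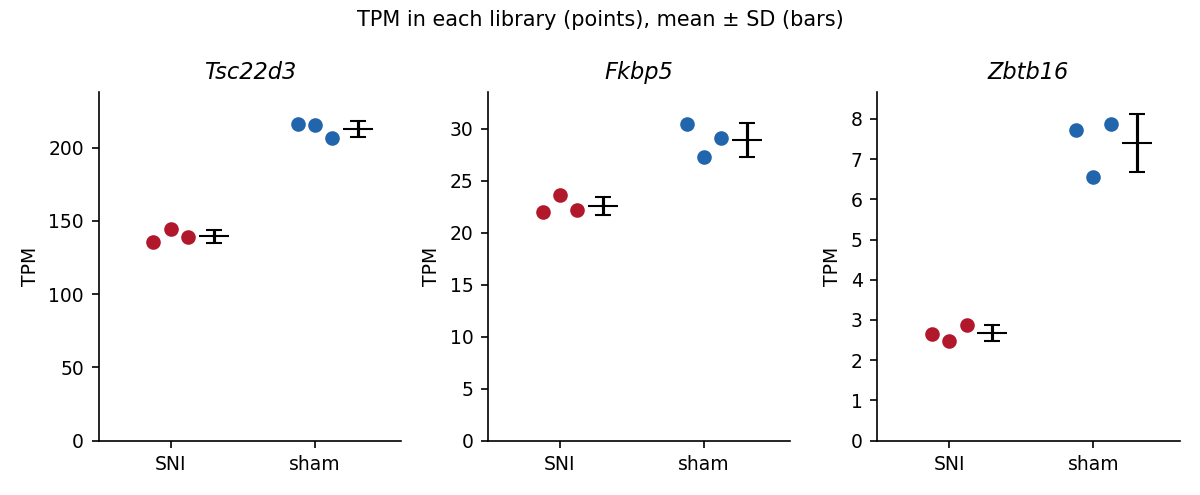
TPM of Tsc22d3, Fkbp5 and Zbtb16 (vertical axes, from 0) in the 3 SNI libraries, at the left of each panel, and the 3 sham libraries, with the mean and SD beside the points. In each panel every SNI point lies under every sham point, and the gap is narrow for Fkbp5 (3.63 TPM).

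These 3 genes were set beside the whole table because it is rich in differences: the groups did not overlap, with SNI lower, in 31.3% of the 1596 genes whose mean over the 6 libraries reached 1 TPM. As the contrast had been seen when the genes were chosen, nothing is read from 3 of 3 lying that way. Ranked by fold change among those 1596 genes, Zbtb16 was number 18 from the lowest, Tsc22d3 number 94 and Fkbp5 number 244.

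The other target genes differed less in their averages. Per1 (Gene ID 287422), a core clock gene with a known hormone-response element, averaged 14.68 TPM in SNI and 17.98 TPM in sham, a log2 ratio of -0.28. Sgk1 (Gene ID 29517), a kinase that promotes sodium channel activity at the cell surface, averaged 31.91 TPM in SNI and 30.80 TPM in sham, a log2 ratio of 0.05. Pdk4 (Gene ID 89813), which holds back glucose oxidation by phosphorylating pyruvate dehydrogenase, averaged 4.53 TPM in SNI and 4.20 TPM in sham, a log2 ratio of 0.09. It rested on averages of 58.3 reads in SNI and 53.7 reads in sham. The median standard errors of genes near their levels were 0.073 for Per1, 0.063 for Sgk1 and 0.10 for Pdk4. The averages of the known targets Zbtb16, Tsc22d3, Fkbp5 and Per1 were lower in SNI, and those of Sgk1 and Pdk4 were slightly higher. The log2 ratios of Sgk1 and Pdk4 were smaller than the median standard errors near their levels, so their side of sham is unsettled.

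**Figure D2:**
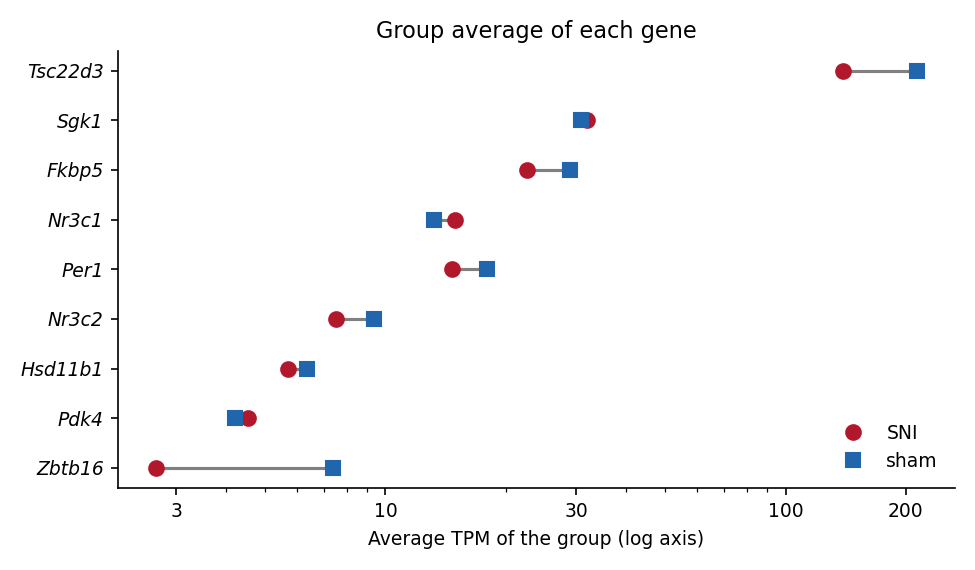
Group average of each of the 9 genes in TPM on a log axis, SNI as circles and sham as squares, ordered by the SNI average. Zbtb16 has the widest gap, 2.67 TPM in SNI against 7.39 TPM in sham, and Sgk1 the narrowest; averages have no error.

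Of the 9 averages, 6 were lower and 3 higher in SNI, and 45.9% of all 18696 genes were lower. At a log2 ratio of -0.5 or less there were 2, Zbtb16 and Tsc22d3, where 3.41% of all genes lay, and at 0.5 or more there were 0, where 7.39% of all genes lay. The median log2 ratio of the 9 genes was -0.28, beside 0.017 over all genes. The 6 genes without TPM per library ran between -0.28 and 0.17, with 3 on either side of 0 and a median of -0.05. Among the 13307 genes with an average of at least 50 reads over both groups, the ratio of Zbtb16 lay at percentile 0.256, that of Tsc22d3 at 2.13, Fkbp5 at 8.24, Nr3c2 at 11.5, Per1 at 11.8, Hsd11b1 at 24.8, Sgk1 at 56.5, Pdk4 at 62.5 and Nr3c1 at 74.1.

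**Figure D3:**
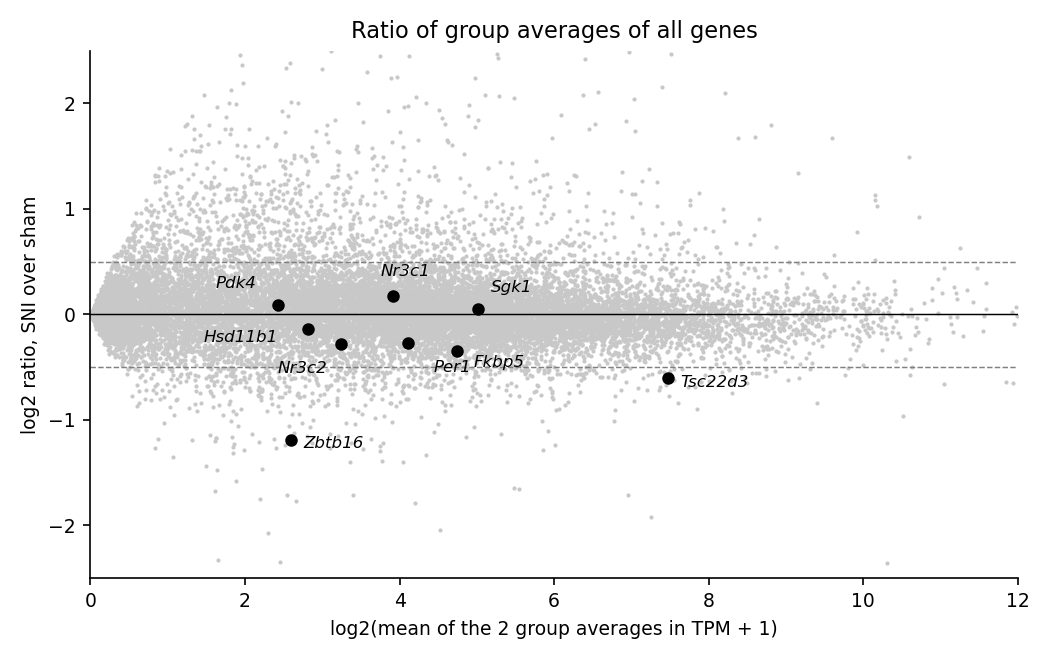
Log2 ratio of group averages, SNI over sham (vertical axis), against the log2 level (horizontal axis) for all genes in grey and the 9 genes in black, with dashed lines at -0.5 and 0.5. Zbtb16 and Tsc22d3 lie under the lower line and the other 7 genes between the lines; 47 grey genes lie beyond the vertical limits of 2.5 in size and 13 beyond the horizontal limit.

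In the order of levels, Tsc22d3, Sgk1 and Fkbp5 came first in both groups. Nr3c1 and Per1 stood next to each other in both, 14.96 and 14.68 TPM in SNI and 13.19 and 17.98 TPM in sham, so that their order differed between the groups. Zbtb16 was the lowest of the 9 in SNI and number 7 of them in sham. Only for Tsc22d3, Fkbp5 and Zbtb16 can the order be set against a spread, and their levels were apart by far more than their SDs in both groups.

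The libraries that held more of one gene also held more of certain others. Over the 6 libraries, on the log2(TPM + 1) scale and among 1471 other genes that averaged 5 TPM or more, the genes most like Zbtb16 included Prx, a Schwann cell protein needed for stable myelin, and Phf24, with Pearson r of 0.9990 and 0.9987. Prx stood at 130.8 ± 3.15 TPM in SNI and 224.8 ± 11.1 TPM in sham (SD, n = 3 each). The genes most like Tsc22d3 were the phospholipase Pla2g7, Extl2 and Patj (r of 0.9983, 0.9982 and 0.9974), and those most like Fkbp5 were Cpne4, the prohormone convertase Pcsk2 and the peroxisomal transporter Abcd2 (0.9927, 0.9914 and 0.9908). All of these r values are dominated by the same gap between 2 groups of libraries and are descriptions only.

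Other genes of the pathway were taken from fixed lists, and tests ran over the 1596 genes with limma at a Benjamini-Hochberg adjusted p under 0.05. Of those genes 32.0% were called higher (510) and 29.2% lower (466) in SNI; after quantile normalization the split was 402 higher and 608 lower. Each list below is to be read against those shares and against the median log2 ratio of all genes, 0.017.

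Averages of the genes that hold and read the receptors lay close to those of sham, with one coregulator called higher. Of 12 chaperones and co-chaperones 0 had TPM per library, and their log2 ratios ran from -0.26 to 0.41 with a median of 0.04. Hspa8 averaged 2346 TPM in SNI and 2392 TPM in sham, and Hsp90ab1, an Hsp90 gene, 2012 TPM in SNI and 1996 TPM in sham. Of 16 coregulators of nuclear receptors, 14 averages were higher in SNI, with a median log2 ratio of 0.09. Of the 2 coregulators tested, Nrip1, a corepressor, rose, with 15.49, 16.73 and 17.34 TPM in SNI libraries against 9.07, 8.08 and 8.27 TPM in sham libraries (log2 fold change 0.89, SE 0.07, limma adjusted p = 7.2e-06), and 1 did not pass, Ncoa2, a coactivator (0.10, adjusted p = 0.36). Ncoa2 was named after its value was seen. Of 11 genes of hormone metabolism and transport found in the files 0 were tested, and their median log2 ratio was -0.02. Among them Cyb5a averaged 164.6 TPM in SNI and 181.7 TPM in sham, and Por, which passes electrons to steroid-metabolizing enzymes, 65.6 TPM in SNI and 64.5 TPM in sham. Of the 11 averages, 5 were higher and 6 lower in SNI. Srd5a2, named after its value was seen, had TPM per library but a mean under 1 TPM. It stood at 1.49, 1.38 and 1.40 TPM in SNI libraries, against 0.32, 0.19 and 0.19 TPM in sham libraries. With genes under that mean kept in the fit, 1 gene of this list was called higher. Of 7 related nuclear receptors, 6 averages were lower in SNI (median log2 ratio -0.25). The 1 tested, Esrrg, an orphan receptor of oxidative metabolism, fell (8.16 ± 0.400 TPM in SNI and 13.4 ± 0.906 TPM in sham, SD, n = 3 each; limma adjusted p = 6.4e-05).

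Among 53 other genes known as targets of the glucocorticoid receptor, 15 were tested, of which 8 rose, 3 fell and 4 did not pass. The averages were higher in SNI for 30 and lower for 23, with a median log2 ratio of 0.04. Cdkn1a, an inhibitor of the cell cycle, rose to 45.0, 47.4 and 44.1 TPM in SNI libraries, against 13.2, 9.93 and 11.9 TPM in sham libraries (log2 fold change 1.88, SE 0.09, limma adjusted p = 2.1e-07). Cebpd, a transcription factor of the acute phase response, rose to 100.4 ± 1.59 TPM in SNI, against 41.8 ± 4.71 TPM in sham (limma adjusted p = 8e-07). Sult1a1, a sulfotransferase, fell to 35.9, 41.0 and 35.2 TPM in SNI libraries, against 79.8, 80.6 and 84.1 TPM in sham libraries (log2 fold change -1.11, SE 0.06, limma adjusted p = 7.4e-07). In none of these genes did the groups overlap. The other genes that fell, named after their values were seen, were Cdkn1c, another cell cycle inhibitor, and Fam107a, an actin-binding protein, with log2 fold changes of -0.69 and -0.55. Gadd45a, the highest by its log2 ratio of averages, is also on the list of injured neuron markers, and Dusp1 and Zfp36 are on that of immediate early genes. Rhob, Angptl4, Cebpb, Mt1, Mt2A and Zfp36 were the other genes that rose, with log2 fold changes between 0.23 and 0.98. Of the 53 averages, 11 lay at a log2 ratio of 0.5 or above and 7 at -0.5 or below. The 11 high genes, also named after their values were seen, were Gadd45a, Il1r2, Cdkn1a, Cebpd, Anxa1, Lcn2, Mt2A, Dusp1, Zfp36, Mt1 and Tle3. The 7 low genes, named likewise, were Ptgds, Hif3a, Sult1a1, Klf15, Cdkn1c, Errfi1 and Fam107a. Ptgds, the prostaglandin D synthase that is abundant in meninges, averaged 413.3 TPM in SNI and 2127 TPM in sham. Klf15, a metabolic transcription factor, averaged 10.1 TPM in SNI and 17.7 TPM in sham.

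**Figure D4:**
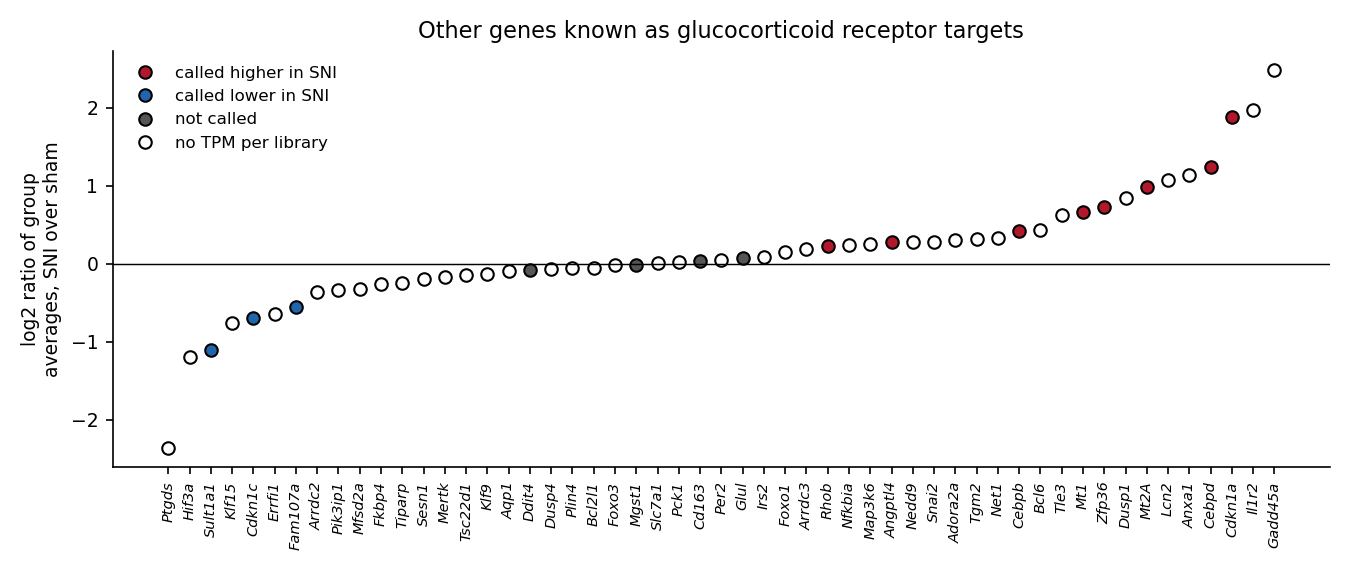
Log2 ratio of group averages, SNI over sham (vertical axis), of 53 other genes known as glucocorticoid receptor targets in rising order, filled by the limma call where TPM per library existed (8 higher, 3 lower, 4 not called) and open where it did not. Genes lie on both sides of 0, with Ptgds lowest and Gadd45a highest.

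Few genes of the families and pathways that the members act in had TPM per library. Of 21 clock genes, the partners of Per1, 3 were tested with limma and 0 passed (0 at an unadjusted p under 0.05), with a median log2 ratio of 0.05. Per2 averaged 2.47 TPM in SNI and 2.37 TPM in sham, and the 2 most abundant of the list, the kinases Csnk1d and Csnk1e, 144.2 and 65.0 TPM in SNI and 137.9 and 52.0 TPM in sham. Of the 21 averages, 13 were higher and 8 lower in SNI. Nfil3, named after its value was seen, averaged 17.8 TPM in SNI and 5.29 TPM in sham, a log2 ratio of 1.58. Nfil3 was in the authors' list of higher genes but had no TPM per library, so it was not tested. After quantile normalization 2 clock genes were called lower, and 1 was called higher with the replicate block or without sham replicate 3. Of 20 genes around the mineralocorticoid receptor and SGK kinases, 4 were tested: Ndrg1, a substrate of Sgk1, fell (270.8 ± 0.964 TPM in SNI and 346.4 ± 9.75 TPM in sham, SD, n = 3 each; limma adjusted p = 5.9e-05), as did the sodium pump subunit Atp1b1 (log2 fold change -0.12), the kinase Wnk1 rose (0.20), and 1, Nedd4l, did not pass (-0.13). The call of Wnk1 was lost after quantile normalization (adjusted p = 0.091) and without SNI replicate 3 (0.069). That of Atp1b1 was lost without SNI replicate 1 (0.10), SNI replicate 3 or sham replicate 3, and without an intensity trend (0.054 each). Nedd4l was singled out on sight of its value.

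Of 32 genes of pyruvate dehydrogenase control and fatty acid use, around Pdk4, 3 were tested, of which 1 rose, 1 fell and 1 did not pass. Angptl4, an inhibitor of lipoprotein lipase, was the gene that rose (log2 fold change 0.27, SE 0.09, limma adjusted p = 0.020). Dlat, a subunit of the pyruvate dehydrogenase complex, did not pass (log2 fold change 0.004). Dlat was singled out on sight of its value. The call of Angptl4 was lost after quantile normalization (adjusted p = 0.49) and without SNI replicate 1 (0.075), SNI replicate 3 (0.068) or sham replicate 1 (0.053). The median log2 ratio of the list was -0.07, with 3 of the 32 averages at 0.5 or above and 0 at -0.5 or below. Named after their values were seen, the 3 were Cd36 (0.77), Plin2 (0.70) and Pdp1 (0.52), all without TPM per library. Of 13 other immunophilins of the FKBP family 2 were tested: Fkbp10 rose (0.25, limma adjusted p = 0.0068) and Fkbp7 fell (-0.21, adjusted p = 0.036), with a list median of -0.14. The first call was lost after quantile normalization (adjusted p = 0.13), and the second without any 1 of 5 libraries, SNI replicates 1 and 3 and all sham replicates (0.053 to 0.14), and with replicate number as a block (0.054). Fkbp4, the immunophilin that competes with Fkbp5 for the receptor complex, averaged 281.9 TPM in SNI and 337.5 TPM in sham (log2 ratio -0.26, no TPM per library). Of 13 relatives of Tsc22d3 and Zbtb16 0 were tested, and Tsc22d1 averaged 458.7 TPM in SNI and 504.3 TPM in sham and Tsc22d4 68.1 TPM in SNI and 69.2 TPM in sham (list median -0.02).

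Immediate early and dissection stress genes, which handling and injury both induce, were set beside the 9 genes, as Per1 and Sgk1 can respond to the same stimuli. Their median log2 ratio was 0.72, with 14 of 15 averages higher in SNI, and all 4 tested rose, with Fos, Junb and Zfp36 at log2 fold changes of 1.82, 1.02 and 0.72. Per1 (-0.28) and Sgk1 (0.05) lay under that median. The part of these genes in the members' values was not tested.

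Markers of the ganglion's cell types moved with the groups. All 12 sensory neuron markers were present, with averages of at least 46.3 TPM in either group, and they summed to 22381 TPM in SNI and 23073 TPM in sham (9 of 12 lower; of 3 tested 2 fell, Snap25 and Scn10a). Myelinating Schwann cell markers moved in the direction of Tsc22d3, Fkbp5 and Zbtb16: 9 of 10 averages were lower, all 5 tested fell, Pmp2 and Mbp among them, and the tested genes summed to between 4138 and 4283 TPM in SNI libraries and between 8188 and 8359 TPM in sham libraries. Of 14 fibroblast and meningeal markers 10 averages were lower, and of 9 tested 5 fell (Slc6a20, Fmo2 and Igf2 most) and 2 rose. The number that rose was 1 after quantile normalization, without an intensity trend or a filter, and without SNI replicate 1, 2 or 3 or sham replicate 1 or 2, and the number that fell was 3 without SNI replicate 1. Their averages summed to 4392 TPM in SNI and 5181 TPM in sham, while those measured per library, with the abundant Apod among them, summed to between 3861 and 3960 TPM in SNI libraries and between 2943 and 2990 TPM in sham libraries. Some of these markers were picked with their values known. In the other direction, 10 of 10 markers of injured neurons, 12 of 12 of macrophages and 10 of 10 of erythrocytes averaged higher, with median log2 ratios of 2.84, 1.23 and 1.58, and 3 of 3, 2 of 4 and 10 of 10 tested rose. Their summed averages were 3598, 2168 and 4270 TPM in SNI and 453.6, 999.3 and 1425 TPM in sham. Hba-a1, Lyz2 and Npy were among those that rose.

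Lists with medians nearer 0 were satellite glia (9 of 10 higher, median 0.10; of 4 tested Cdh19 rose and Apoe fell), endothelial cells (8 of 11, 0.10; of 4 tested Tie1 rose and Cldn5 fell), and pericytes and smooth muscle (7 of 10, 0.10; Rgs5 and Acta2 of 3 tested rose). T and B lymphocyte markers (6 of 9, 0.46; Cd3e and Cd8a rose) summed to only 14.2 TPM in SNI and 9.61 TPM in sham. Adipocyte markers (6 of 9 higher, median 0.10) summed to 27.5 TPM in SNI and 19.7 TPM in sham, and Cfd, the 1 tested, rose. Of the 9, 3 were under 1 TPM in both groups, Adipoq and Plin1 among them. Skeletal muscle, where Pdk4 and Fkbp5 are abundant, was represented at low levels: its 10 markers summed to 23.9 TPM in SNI and 25.6 TPM in sham, 5 of them under 1 TPM in both groups, with Acta1 and Mylpf the most abundant. Calls of Apoe, Tie1, Cfd, Cd3e and Cd8a were lost after quantile normalization, and that of Cldn5 without SNI replicate 2, SNI replicate 3 or sham replicate 3. The part of any cell type in the values of the 9 genes was not tested.

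**Figure D5:**
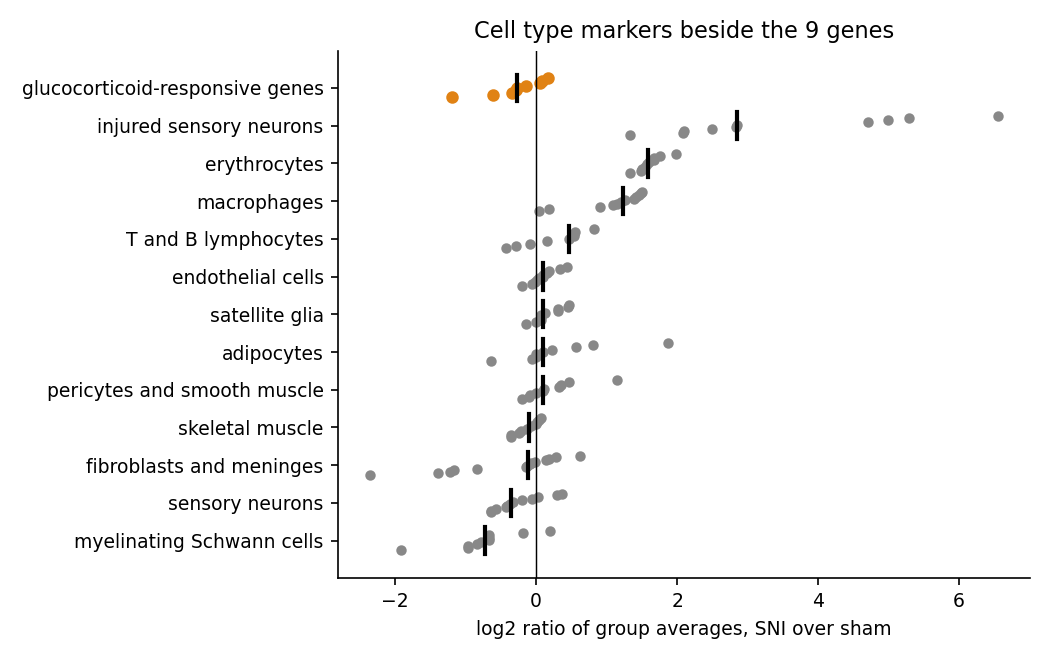
Log2 ratio of group averages, SNI over sham (horizontal axis), of each marker gene in 12 cell type lists (grey, 1 row a list) and of the 9 genes (orange, top row), with the median of each row as a black bar. The 9 genes have a median of -0.28, between sensory neuron markers and fibroblast and meningeal markers in the order of medians, and injured neurons stand highest at 2.84.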

How the data were processed

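The 9 genes and all gene lists were chosen with earlier results of these data known. Per the file headers, TPM was deposited per library for 1637 genes and as group averages for 18696 genes. The averages of estimated counts were also deposited, with no normalization stated. Per the labels' protocols RNA came from frozen ganglia, with 2 extraction kits and 2 library kits named. The aligner, counter, genome build, strand setting and rules for choosing genes are not stated in the labels or headers, so overlapping and antisense genes cannot be told apart. Columns named control were taken as sham, the other group in the labels. Library means matched the deposited averages in 1628 of 1628 shared genes (tolerance 0.006 TPM). A library's TPM in the table summed to between 25.8% and 27.1% of the TPM total.

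The 1596 genes that reached a mean of 1 TPM over 6 libraries (41 did not) were compared as log2(TPM + 1). The tool was limma 3.58.1 under R 4.3.3, with a design of group alone, an intensity trend, and p-values adjusted by Benjamini-Hochberg. The fit was checked on simulated data with fewer changed genes than were called here, so the check need not carry over to these data. With 3 libraries a group an exact permutation test stops at a two-sided p of 0.1, so none was used. The 23 lists held 335 symbols, of which 327 were in the files, 3 through RefSeq names (GRCr8). Named genes were the 9 members, per list up to 3 called genes of largest change (with none called, the 2 most abundant), and the 3 genes most like each member with TPM per library; a few of them are not reported here. Promoter windows came from RefSeq; receptor protein identity was planned and is not analysed here. Python 3.11.15, pandas 2.3.3, numpy 2.4.6 and matplotlib 3.10.9 were used.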

Additional observations from a re-analysis of the deposited data

How the results depend on the processing

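Tsc22d3, Fkbp5 and Zbtb16 kept their direction in each alternative fit. The ratios of group averages of all 9 genes had only a pseudocount of 0.1 and average read counts as alternatives. None was reversed, but a pseudocount cannot change a direction and the read counts come from the same libraries. For the other 6 genes this is therefore no check of direction. The log2 fold change of Zbtb16 moved from -1.19 to -1.43 with a pseudocount of 0.1 and to -1.49 after quantile normalization, and that of Fkbp5 from -0.34 to -0.47 after quantile normalization. The ratio of Zbtb16's group averages was -1.43 with a pseudocount of 0.1 and -1.43 from read counts. With each library left out in turn, the log2 fold changes ran from -0.63 to -0.59 (Tsc22d3), -0.39 to -0.31 (Fkbp5) and -1.26 to -1.15 (Zbtb16), and between 442 and 522 genes were called higher and 381 and 477 lower. Of 552 alternative counts over the lists, 41 moved by more than 1.5 times. The labels state no pairing of libraries. Deviations of same-numbered libraries correlated at -0.088, -0.059 and 0.19, and 2 of 6 libraries correlated best with their own number. With 3 libraries a group these values cannot exclude a pairing. With the replicate block, 498 genes were called higher and 447 lower.

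TPM keeps no depth, and 6 of the 9 genes have no value per library, so no error can be given for them.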
